A study of Mus musculus with 16 samples.

Results

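Microglia sorted from the retina were compared with microglia sorted from the whole brain of adult C57BL/6 mice, a standard inbred strain, aged 8 to 10 weeks. The comparison covers 8 of the 16 bulk RNA libraries of the series, 4 retinal and 4 brain, chosen by population label; the study asked for the RNA signatures of these and other mononuclear phagocytes. Both populations were sorted as CD45+CD11b+ cells, a gate that other myeloid cells share. The labels give no transgene and no treatment for either. Each retinal sample is labelled as a pool of 10 mice, and its tissue was broken up by pipetting in cold buffer. The free-text description of the brain samples also gives 10 pooled mice but names retinal cells, against their title, source and population, and no dissociation method for brain was found in the labels. The titles of retinal libraries 2 and 4 hold the number ranges 8 to 10 and 1 to 6, and those of brain libraries 3 and 4 hold 4 to 6 and 7 to 9. What these ranges count is not given, and none of them spans 10 numbers, so the size of the pools is uncertain. Retinal libraries 1 and 2 share a title number, as do libraries 3 and 4. The titles of libraries 1 and 3 are without the letter b of the other titles, whose meaning is not given, so 4 libraries may stand for fewer separate samples, and p-values measure the spread between libraries, which may in part be technical.

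Microglia are the resident macrophages of nervous tissue, seeded from the yolk sac and kept alive by CSF1 receptor signals. In the retina they lie in the synaptic layers between neurons and Müller glia and clear the debris of photoreceptors, whose outer segments are shed and renewed daily. Brain microglia include the cells of both grey and white matter, among myelin and astrocytes. Both take up lipid-rich material, store or export its cholesterol, and sense their neighbours through receptors, channels and transporters.

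Counts per library came to 10714335, 17230891, 16011684 and 19943048 in retinal libraries 1 to 4 and to 10399008, 8677418, 9454037 and 12848012 in brain libraries 1 to 4. The labelled cell type was matched by its defining genes: all 20 microglia identity genes were measured in both tissues, and their summed level lay between 58442 and 72688 CPM (counts scaled to a common library size) in retinal and between 88648 and 103928 CPM in brain libraries. Of these genes 9 were lower in retinal microglia and 1, Bhlhe41, higher, with a median log2 fold change of -0.45. Fcrls averaged 678 ± 175 CPM in the retina against 3943 ± 594 CPM in the brain (log2 fold change -2.54), the purinergic receptor gene P2ry12 8642 ± 1165 CPM in the retina against 15741 ± 579 CPM in the brain (log2 fold change -0.87), and Csf1r 9465 ± 1082 CPM in the retina against 13675 ± 1563 CPM in the brain (log2 fold change -0.53; mean ± SD, n = 4 each, as for every mean given here). Tmem119 and Sall1 were among the 10 not called. With 1 library left out 5 to 13 of the list were lower, and in the fit with lane described below 1 was, Fcrls (-2.15, edgeR adjusted p = 0.00676), with a median of -0.46. Rod photoreceptor RNA was present in every retinal library. The 25 measured genes of the rod list summed to 5892, 3735, 1543 and 11882 CPM in retinal libraries 1 to 4, against 266, 319.9, 272 and 273 CPM in brain libraries, where the broadly used G protein subunit gene Gnb1 held most of the sum. Every retinal library came from lane 2 and every brain library from lane 3, so population and lane cannot be told apart within these 8 libraries. In bulk RNA, fewer cells of a type and less RNA per cell cannot be told apart either.

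The quasi-likelihood test of edgeR was run on 13735 genes, and 1550 of them (11.3%) passed an adjusted p of 0.05. In retinal microglia 957 genes (6.97%) were higher and 593 (4.32%) lower. The lower count came to 374, 341 and 315 when brain library 1, 3 or 4 was left out. At least a 2-fold change was found for 716 of the higher and 162 of the lower genes. The 4 retinal libraries lay above all brain libraries for 10.8% of genes and below all of them for 8.53%. The median log2 fold change of all tested genes was 0.03; scaled by total counts alone it was 0.14, with 1230 genes higher and 344 lower. With the lane as a term, estimated over all 16 libraries because the other 2 populations were run in both lanes, 316 of 15734 genes (2.01%) were higher and 146 (0.928%) lower, and 369 of the 1550 calls held in the same direction. Of the other populations, cornea macrophages were run mostly in lane 2 and marrow monocytes mostly in lane 3. The lane effect thus rests on few libraries of other cell types. For a gene with few reads in those cells it is poorly determined, so a call that did not pass there is undecided. Of the 25 rod list genes, all called higher without the lane term, 8 passed with it. For the genes described, the result of that fit is given singly or for several genes together.

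How far a gene followed the rod RNA was measured by the slope of its log2 level on the log2 rod sum over the 4 retinal libraries, which is near 1 for a gene of rods and near 0 for a gene that does not move with them. The rod sum spanned 7.70-fold. A slope of 0.5 or more was found for 208 of the 957 higher genes and 11 of the 593 lower ones. Without all such genes and the retinal cell lists, 905 genes were higher and 615 lower. Of the measured rod, cone and neuronal genes 25 of 25, 3 of 4 and 5 of 7 were higher in retinal libraries, against 6.97% of all genes. Many of the rod genes had 0 counts in brain libraries and passed the filter on low counts through the retinal ones only. Their direction was thus fixed beforehand. In all, 67 of the higher genes had 0 counts in brain libraries. The same limit holds for genes described below that were near 0 in every brain library, such as Sema3f, Adgre5, Oas2 and Apoc1. They could be called higher or not at all, and they count toward the higher shares of their lists. The cone and neuronal lists hold 13 and 18 genes, of which most did not pass the filter. The genes described from here on had slopes below 0.5 unless a slope is given.

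**Figure D1:**
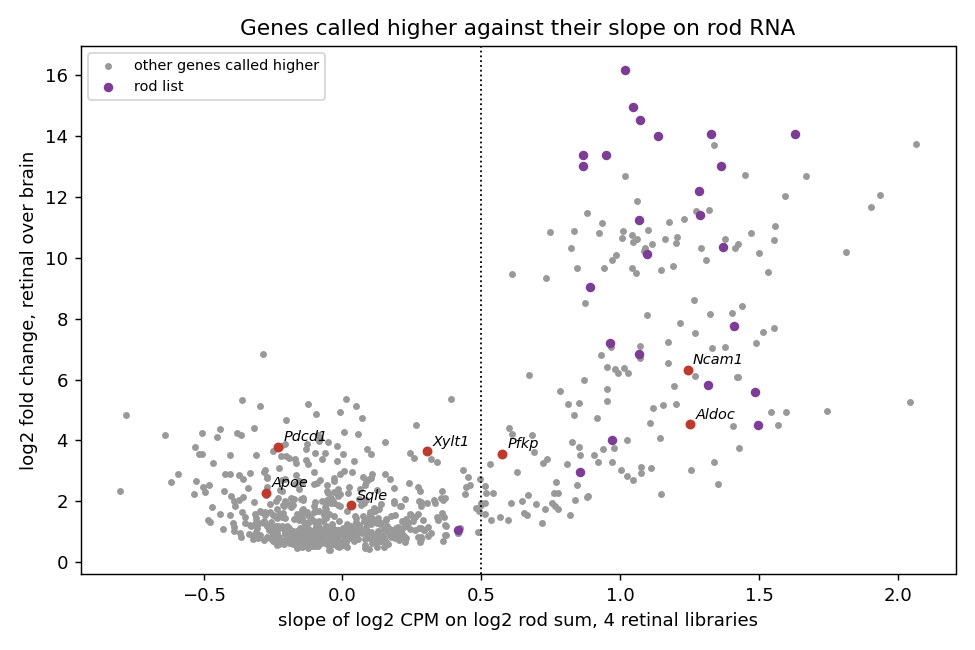
Each point is 1 of the 819 genes called higher in retinal microglia with a mean of at least 5 CPM there, by its slope on the rod sum (x axis, log2 CPM per log2 rod sum, 4 retinal libraries) and its log2 fold change over brain microglia (y axis). Rod list genes (purple) lie at the upper right with Gnb1 as the low exception, red points are named genes, and the dotted line marks the slope of 0.5; Apoe, Pdcd1 and Sqle lie left of it, and Aldoc, Ncam1 and Pfkp right of it.

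The 38 pathway and family lists differed in how many members passed the test. Sterol synthesis, glycolysis and ribosomal proteins had the largest shares of higher members, with 8 of 27, 10 of 34 and 24 of 77, against 6.97% of all genes. The unfolded protein response, orphan and adhesion receptors and glucocorticoid targets had the largest shares of lower members among lists with at least 20 measured genes, with 9 of 27, 9 of 31 and 5 of 20, against 4.32% of all genes. With 1 library left out, 3 to 7 sterol, 5 to 10 glycolysis and 11 to 20 ribosomal genes were higher, while 5 to 11 genes of the unfolded protein response, 5 to 9 receptors and 1 to 6 glucocorticoid targets were lower. The microglia identity genes, at 9 of 20 lower, had a larger share than any of these, and their part in the lower lists was not tested. By contrast, 1 of 81 nuclear respiratory chain genes, 1 of 42 proteasome genes, 0 of 15 mitochondrially encoded genes and 11 of 315 zinc finger genes named Zfp changed in either direction, shares below the 11.3% of all genes. These shares describe the lists and were not tested against chance. The counts given for each list below stand against the same 6.97% higher and 4.32% lower of all genes.

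**Figure D2:**
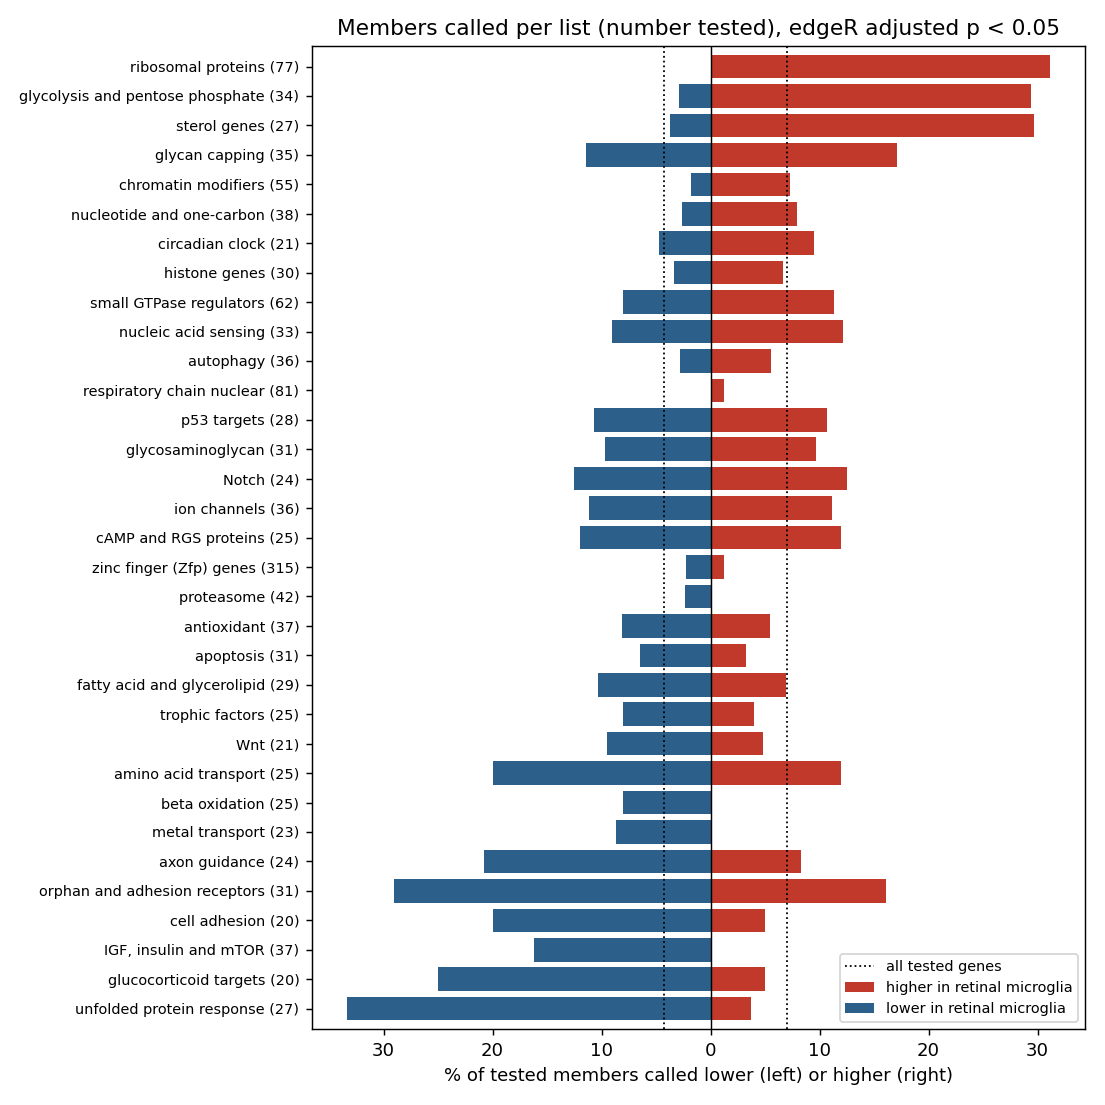
Bars give the percentage of measured members called higher (red, right) or lower (blue, left) in retinal than in brain microglia for the 33 lists with at least 20 measured members, whose number stands in brackets. Dotted lines mark 6.97% and 4.32%, the shares of all 13735 tested genes; the unfolded protein response stands at the bottom with 9 of 27 members lower, and ribosomal proteins at the top with 24 of 77 higher.

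Genes of the sterol pathway were higher in retinal microglia. The pathway is switched on by the transcription factor SREBP2, which is freed from the endoplasmic reticulum when sterol there is low, and is held back by the INSIG proteins. Of 27 measured genes, 8 were higher and 1 lower, with a median log2 fold change of 0.65 against 0.03 for all tested genes. Sqle, the squalene epoxidase that controls an early step of sterol synthesis (chromosome 15, 59315077 to 59331192, build GRCm38), had 26.7, 35.6, 18.6 and 20.4 CPM in retinal libraries 1 to 4, against 6.85, 4.88, 6.14 and 9.82 CPM in brain libraries 1 to 4, a log2 fold change of 1.86 ± 0.28 (SE; edgeR adjusted p = 0.00151). Its lowest retinal value was still well above the highest brain value. Srebf2 encodes SREBP2 itself. It had 46.6, 33.6, 22.2 and 37.1 CPM in retinal microglia, against 15.5, 11.7, 16.0 and 20.5 CPM in brain microglia, again without overlap, at 1.13 ± 0.25 (SE; edgeR adjusted p = 0.0125). Sqle and Srebf2 kept their calls in all 8 fits that left out 1 library.

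Further members moved less. Cyp51, the lanosterol demethylase, had 49.6, 47.4, 32.8 and 59.6 CPM in retinal microglia, against 27.0, 25.9, 30.7 and 28.7 CPM in brain microglia (log2 fold change 0.75 ± 0.19 SE, edgeR adjusted p = 0.0241). Sc5d, a late desaturase of the pathway, averaged 44.2 ± 6.69 CPM in the retina against 28.2 ± 3.44 CPM in the brain. Pmvk, a mevalonate pathway kinase, averaged 20.6 ± 4.79 CPM in the retina against 11.1 ± 3.23 CPM in the brain, and Insig1, itself an SREBP target, 28.5 ± 5.83 CPM in the retina against 16.7 ± 4.06 CPM in the brain. Their log2 fold changes were 0.65, 0.89 and 0.77. Insig2, the other INSIG gene, was the lower one at 65.2 ± 9.68 CPM in the retina against 94.6 ± 7.37 CPM in the brain (log2 fold change -0.53). These smaller calls depended on single libraries. For Cyp51, Insig1 and Insig2 they held in 1 of the 8 fits with a library left out (without retinal library 3), for Pmvk in 1 (without retinal library 1) and for Sc5d in 4. Between 3 and 7 members were higher in those fits, and the list's median stayed between 0.54 and 0.72. The 5 higher genes with a RefSeq promoter window all held CCAAT, as did 12 of the 14 uncalled ones and 41.1% of all genes with a window. The sterol element that SREBP2 binds was searched as TCACNCCAC on both strands. It was found in 0 of those 5, in 1 of the 14, Hmgcs1, and in 1.44% of all genes with a window. In the fit with lane, Sqle (1.86, edgeR adjusted p = 0.0129) remained called. Srebf2 did not pass, at the same log2 fold change of 1.13 (edgeR adjusted p = 0.0751), and the other 5 members named lay between -0.50 and 1.03 without passing.

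The liver X receptors sense oxidised sterols and switch on cholesterol export. In a list of their targets that also holds their partner gene Rxra, 5 of 19 measured genes were lower in retinal microglia, Rxra among them. The targets Apoe and Apoc1 were the 2 higher ones (median log2 fold change of the list -0.27). The cholesterol exporter gene Abcg1 (chromosome 17, 31057675 to 31117988) had 71.2, 53.3, 57.0 and 65.9 CPM in retinal libraries 1 to 4, against 219.7, 287, 268 and 302 CPM in brain libraries 1 to 4, so the brain level was more than 3 times that of any retinal library. It fell by 2.12 on the log2 scale in retinal microglia (SE 0.15; edgeR adjusted p = 2.13e-05). Abca1, the exporter to apolipoprotein A1, had 197, 106, 53.3 and 137 CPM in retinal microglia, against 429, 321, 452 and 387 CPM in brain microglia, and its retinal values rose with the rod sum (slope 0.52). The log2 fold change was -1.69 ± 0.31 (SE; edgeR adjusted p = 0.00472), and even its highest retinal library lay below every brain library. The desaturase gene Scd2 had 71.2, 58.3, 45.6 and 64.2 CPM in retinal microglia, against 198, 136, 185 and 229.8 CPM in brain microglia, at -1.65 ± 0.19 (SE; edgeR adjusted p = 0.000257). Lpcat3, a phospholipid remodelling enzyme, averaged 206 ± 39.1 CPM in the retina against 349.8 ± 47.9 CPM in the brain (log2 fold change -0.76), and Rxra, the receptors' partner, 54.4 ± 8.41 CPM in the retina against 82.5 ± 13.6 CPM in the brain (log2 fold change -0.60). Calls of Abcg1, Abca1, Scd2 and Lpcat3 held in all 8 fits with a library left out, that of Rxra in 3. In the fit with lane Abcg1 (-2.16, edgeR adjusted p = 0.000105) and Lpcat3 (-1.12, edgeR adjusted p = 0.0338) stayed lower. Abca1 (-2.06, edgeR adjusted p = 0.0720) and Scd2 (-1.73, edgeR adjusted p = 0.145) had log2 fold changes of similar size and did not pass, and Rxra was at -0.33.

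Apoe, the main lipid carrier of the nervous system, is also a liver X receptor target. It had 3185, 2134, 4177 and 2137 CPM in retinal microglia, against 629.7, 543, 598 and 620.0 CPM in brain microglia (log2 fold change 2.28 ± 0.21 SE, edgeR adjusted p = 5.78e-05), and it stayed higher with the lane term (1.77, edgeR adjusted p = 0.00224). Its highest value came from retinal library 3, which had the lowest rod sum. Müller glia, the retina's radial glial cells, also make Apoe. Of 11 measured Müller and astroglia genes, which include Apoe, 5 were higher and 1 lower, and their sum ranged from 2432 to 4466 CPM in retinal and from 1045 to 1117 CPM in brain libraries, mostly from Apoe itself. Rlbp1, which marks Müller glia and pigment epithelium, had 15.6, 20.3, 7.16 and 33.5 CPM in retinal microglia, against 0, 0, 1.14 and 0 CPM in brain microglia (slope 0.67; not passed with the lane term, 1.95, edgeR adjusted p = 0.943), and Glul, the glial glutamine synthetase gene, was not called. The part of Müller RNA in the Apoe result was not tested. Apoc1, of the same gene cluster, was the other higher target, with 0.904, 2.79, 8.46 and 2.59 CPM in retinal microglia, against 0.392, 0.232, 0.341 and 0.578 CPM in brain microglia (log2 fold change 3.20 ± 0.70 SE, edgeR adjusted p = 0.0125). It too was highest in retinal library 3, and did not pass with the lane term (2.64, edgeR adjusted p = 0.222).

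**Figure D3:**
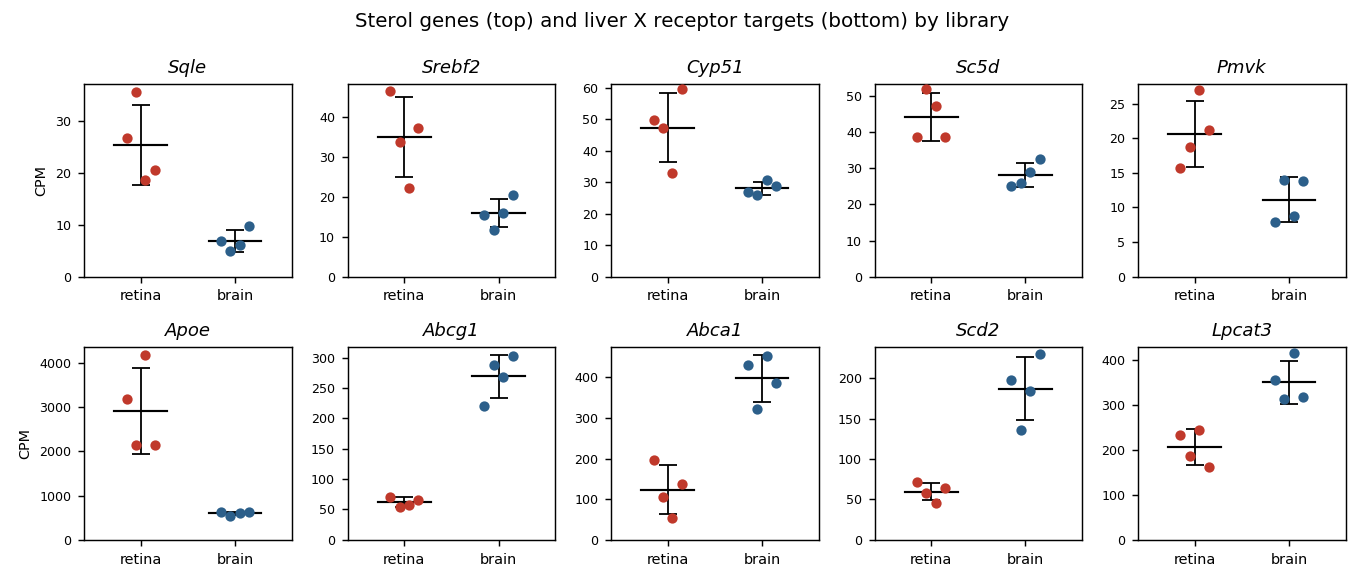
Levels in CPM (y axes, from 0) of 5 sterol genes (top) and 5 liver X receptor targets (bottom) in the 4 retinal (red, left) and 4 brain (blue, right) libraries, with mean and SD as black lines. No panel shows an overlap, which the calls of these genes made likely. Sqle lies at 18.6 to 35.6 against 4.88 to 9.82 CPM, and Abcg1 at 53.3 to 71.2 against 219.7 to 302.0 CPM.

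Genes of protein folding in the endoplasmic reticulum were lower in retinal microglia. When misfolded protein builds up there, the unfolded protein response raises chaperones through the factors ATF6 and XBP1, which bind the ER stress element together with NF-Y, the factor of the CCAAT box. Of 27 measured genes of the response, 9 were lower and 1 higher, with a median log2 fold change of -0.36. The promoters of the lower genes were searched on both strands for this element, written as CCAAT, then 9 bases of any kind, then CCACG. It was found in 5 of the 9 lower genes and in 3 of the 15 uncalled members that have a window. Among all 27025 genes with a RefSeq promoter window, each of 250 bases before to 50 after a start, 0.137% held it. Since the list holds genes raised through these factors, more matches than among all genes were likely whatever the calls. CCAAT alone was found in all 9 and in 10 of those 15 uncalled members, against 41.1% of all genes with a window. Of the other motifs searched, CACGTG (8.09% of genes) was found in Dnajb9 and Calr and TGANTCA (8.97%) in Hspa5. TGACGTCA (2.03%) and TTTCNNTTT (12.1%) were found in 0 of the 9. Of the 37 genes with the element genome-wide, 14 were tested here. Of these, 5 were lower, the same 5 as above, and 0 higher, against 4.32% and 6.97% of all tested genes. The element was chosen after the calls were known, and a match is a description of the sequence, not a site shown to be used. The 5 promoters are given because they show the motif that these lower genes share (RefSeq, build GRCm38.p6, 5′ to 3′ on the gene's strand). Capitals mark the element, which lies on the opposite strand in Calr and there reads CGTGG, 9 bases, ATTGG. The windows are chr2:34771840-34772139 (+) for Hspa5, chr8:84846882-84847181 (-) for Calr, chr12:17266339-17266638 (+) for Pdia6, chr11:50325624-50325923 (-) for Canx and chr14:118937682-118937981 (+) for Dnajc3.
Hspa5: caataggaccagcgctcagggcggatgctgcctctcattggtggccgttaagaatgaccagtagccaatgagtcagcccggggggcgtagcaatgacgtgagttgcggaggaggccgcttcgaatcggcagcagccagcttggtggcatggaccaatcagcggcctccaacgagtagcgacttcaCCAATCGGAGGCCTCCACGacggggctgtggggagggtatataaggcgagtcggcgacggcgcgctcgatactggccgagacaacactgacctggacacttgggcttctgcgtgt
Calr: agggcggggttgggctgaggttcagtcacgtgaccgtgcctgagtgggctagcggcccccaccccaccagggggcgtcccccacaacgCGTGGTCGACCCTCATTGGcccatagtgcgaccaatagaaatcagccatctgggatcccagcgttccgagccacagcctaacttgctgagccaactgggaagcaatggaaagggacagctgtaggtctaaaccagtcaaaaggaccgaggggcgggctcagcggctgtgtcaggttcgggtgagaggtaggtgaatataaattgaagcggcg
Pdia6: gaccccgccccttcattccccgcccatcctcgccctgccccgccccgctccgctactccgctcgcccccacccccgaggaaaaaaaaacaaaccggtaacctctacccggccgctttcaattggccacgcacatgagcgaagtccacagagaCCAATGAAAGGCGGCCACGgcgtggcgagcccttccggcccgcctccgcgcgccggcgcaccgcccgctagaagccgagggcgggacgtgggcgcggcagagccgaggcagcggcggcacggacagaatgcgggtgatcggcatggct
Canx: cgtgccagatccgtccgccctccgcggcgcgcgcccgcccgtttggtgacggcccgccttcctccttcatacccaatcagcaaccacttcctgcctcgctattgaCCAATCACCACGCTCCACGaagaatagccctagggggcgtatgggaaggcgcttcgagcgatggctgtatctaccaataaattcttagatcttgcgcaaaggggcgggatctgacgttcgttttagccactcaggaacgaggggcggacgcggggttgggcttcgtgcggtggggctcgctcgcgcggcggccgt
Dnajc3: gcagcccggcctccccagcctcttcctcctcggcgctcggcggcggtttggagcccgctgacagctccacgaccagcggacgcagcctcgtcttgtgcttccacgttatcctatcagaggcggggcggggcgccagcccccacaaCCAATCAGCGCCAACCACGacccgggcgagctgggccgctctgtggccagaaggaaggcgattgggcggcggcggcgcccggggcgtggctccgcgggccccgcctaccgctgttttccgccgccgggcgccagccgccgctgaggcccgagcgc

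Hspa5 encodes BiP, the central chaperone of the compartment. It had 1609, 2144, 1922 and 1837 CPM in retinal libraries 1 to 4, against 2764, 2997, 2578 and 2839 CPM in brain libraries 1 to 4. All retinal libraries lay below all brain libraries, at -0.57 ± 0.11 (SE; edgeR adjusted p = 0.00744) on the log2 fold scale. Calr, a chaperone that binds sugar chains of new glycoproteins, had 219, 239, 251 and 174 CPM in retinal microglia, against 314, 315, 399 and 353 CPM in brain microglia (log2 fold change -0.65 ± 0.14 SE, edgeR adjusted p = 0.0137). Retinal library 4 was the lowest and no retinal library reached a brain one. The partner of Calr, the membrane-bound Canx, averaged 976 ± 102 CPM in the retina against 1403 ± 143 CPM in the brain (log2 fold change -0.52). Dnajc3, a co-chaperone that also restrains the kinases that halt translation, had 200.0, 164, 138 and 175 CPM in retinal microglia, against 298, 229.5, 292 and 301 CPM in brain microglia (log2 fold change -0.73 ± 0.14 SE, edgeR adjusted p = 0.00782). Dnajb9, a BiP co-chaperone induced by XBP1, averaged 42.9 ± 7.22 CPM in the retina against 71.2 ± 11.1 CPM in the brain (log2 fold change -0.73). The disulfide isomerase genes Pdia4, Pdia3 and Pdia6 averaged 376 ± 26.7 CPM in the retina against 568 ± 65.4 CPM in the brain, 1959 ± 221 CPM in the retina against 2711 ± 138 CPM in the brain and 525 ± 71.2 CPM in the retina against 707 ± 34.0 CPM in the brain, with log2 fold changes of -0.59, -0.47 and -0.43. None of the 9 genes overlapped between tissues, which their calls made likely. Of all tested genes 8.53% lay lower without overlap.

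Sesn2, a stress-induced inhibitor of mTORC1 that senses leucine, had 9.85, 11.5, 10.8 and 10.7 CPM in retinal microglia, against 19.7, 17.5, 22.4 and 25.6 CPM in brain microglia (log2 fold change -0.99 ± 0.19 SE, edgeR adjusted p = 0.00605). The stress factor gene Atf3 was the 1 higher member, with 57.9, 50.1, 79.9 and 43.2 CPM in retinal microglia, against 33.0, 24.5, 21.8 and 21.9 CPM in brain microglia (log2 fold change 1.19 ± 0.22 SE, edgeR adjusted p = 0.00490). The genes that start the response itself, Xbp1, Ern1, Atf6 and Eif2ak3, were measured and not called, nor was Ddit3. Calls of Hspa5, Calr, Dnajc3, Pdia4, Sesn2 and Atf3 held in all 8 fits with a library left out; those of Canx, Dnajb9 and Pdia3 ended without brain library 4, and that of Pdia6 held in 1 fit. When lane was a term, Calr (-0.94, edgeR adjusted p = 0.0137), Dnajc3 (-0.80, edgeR adjusted p = 0.0413) and Sesn2 (-1.28, edgeR adjusted p = 0.0119) stayed lower. Hspa5 moved to -0.13 (edgeR adjusted p = 0.854), and Pdia3 to -0.30. Pdia4, Canx, Pdia6, Dnajb9 and Atf3 lay at -0.46, -0.36, -0.55, -0.67 and 0.91 without passing. Hspa5 also did not pass in the fit of all 16 libraries without a lane term (log2 fold change -0.58). Exons of Pdia3 and Pdia6, like those of Cyp51 (Akap9) and Lpcat3 (Emg1), overlap a gene on the other strand (Catsper2 and Atp6v1c2), and reads of such pairs cannot be told apart, since it is not known whether the counting used strand.

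**Figure D4:**
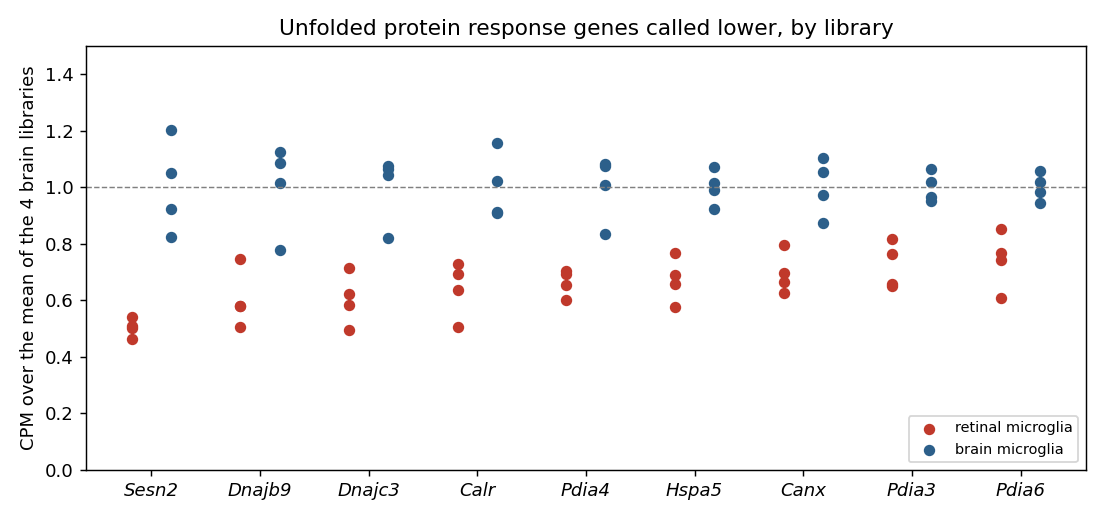
Level of each gene in each library divided by the mean of the 4 brain libraries (y axis, ratio from 0; dashed line at 1), for the 9 unfolded protein response genes called lower, with retinal (red, left) and brain (blue, right) libraries. The red points lie below the blue points in every gene, furthest in Sesn2 (9.85 to 11.5 against 17.5 to 25.6 CPM).

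Of 37 measured genes of insulin and growth factor signalling through PI3-kinase and mTOR, 6 were lower in retinal microglia and 0 higher. Among all genes 4.32% were lower and 6.97% higher. The list's median log2 fold change was -0.29, and 3 to 6 members were lower with 1 library left out. Sesn1, related to Sesn2, had 199, 202, 198 and 225 CPM in retinal microglia, against 279.9, 313, 311 and 291 CPM in brain microglia (log2 fold change -0.54 ± 0.11 SE, edgeR adjusted p = 0.00875). Rps6ka1, a ribosomal S6 kinase downstream of ERK, had 629, 688, 647 and 671 CPM in retinal microglia, against 909, 972, 895 and 989 CPM in brain microglia (log2 fold change -0.51 ± 0.10 SE, edgeR adjusted p = 0.00685). For both the tissues did not overlap, every retinal library being the lower. Inpp5d, the SHIP1 phosphatase, averaged 725 ± 135 CPM in the retina against 1117 ± 126 CPM in the brain (log2 fold change -0.62), while Pik3r5, a PI3-kinase subunit, and Rptor, the mTORC1 scaffold, had log2 fold changes of -0.50 and -0.47. Sesn1 and Rps6ka1 kept their calls in all 8 fits with a library left out. Inpp5d lost it without brain libraries 1, 3 or 4, and Pik3r5 and Rptor held in 1 and 3 fits. In the fit with lane Rps6ka1 passed (-0.90, edgeR adjusted p = 0.0333) and the other 5 did not, Sesn1 moving to -0.66 (edgeR adjusted p = 0.123).

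Transporters differed by substrate. Slc2a6, a hexose transporter of the GLUT family, had 36.3, 28.2, 32.0 and 26.1 CPM in retinal microglia, against 3.03, 4.18, 2.39 and 0.825 CPM in brain microglia (log2 fold change 3.58 ± 0.37 SE, edgeR adjusted p = 0.000142). Slc2a5, the fructose transporter that microglia carry, went the other way, with 792, 722, 803 and 529 CPM in retinal microglia, against 1115, 1012, 1282 and 1151 CPM in brain microglia (log2 fold change -0.68 ± 0.15 SE, edgeR adjusted p = 0.0112). Neither sugar transporter overlapped between tissues. Slc1a5, which imports glutamine and other neutral amino acids, had 20.8, 31.1, 20.2 and 34.7 CPM in retinal microglia, against 6.36, 9.29, 4.55 and 9.41 CPM in brain microglia (log2 fold change 1.85 ± 0.28 SE, edgeR adjusted p = 0.00168). Slc1a3, which takes up glutamate, had 95.8, 89.6, 98.6 and 113 CPM in retinal microglia, against 300.2, 305, 282 and 308 CPM in brain microglia, the retinal libraries far below every brain library, at -1.59 ± 0.12 (SE; edgeR adjusted p = 2.30e-05). Müller glia also use this gene. Slc7a8, an exchanger of large neutral amino acids, averaged 455 ± 52.1 CPM in the retina against 774 ± 63.7 CPM in the brain (log2 fold change -0.77). The zinc importer gene Slc39a12 had 1.81, 0.0557, 2.43 and 2.18 CPM in retinal microglia, against 36.5, 39.8, 44.3 and 40.9 CPM in brain microglia. These calls held in all 8 fits with a library left out. When lane was a term, Slc2a6 (3.79, edgeR adjusted p = 4.92e-05), Slc1a5 (2.06, edgeR adjusted p = 0.00224), Slc1a3 (-5.58, edgeR adjusted p = 5.82e-05) and Slc39a12 (-5.80, edgeR adjusted p = 0.0240) passed, the value of Slc1a3 being far from its other one of -1.59. Slc2a5 (-1.44, edgeR adjusted p = 0.624) and Slc7a8 (-0.78, edgeR adjusted p = 0.0933) did not, and Slc2a5 also missed the threshold in the fit of all 16 libraries without lane (-0.69). Of 25 amino acid transporters 3 were higher and 5 lower (12% and 20%), and of 23 metal transporters 0 and 2 (0% and 8.70%). Of all genes 6.97% were higher and 4.32% lower.

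Of 34 genes of glycolysis and the pentose phosphate pathway 10 were higher and 1, Slc2a5, lower. The isozymes Aldoc, Eno2, Pfkp and Pfkfb2 moved with the rod sum (slopes 1.25, 0.60, 0.58 and 0.64). Aldoc had 22.1, 11.2, 2.30 and 33.6 CPM in retinal microglia, against 0.489, 0.697, 1.25 and 0.578 CPM in brain microglia, lowest in the retinal library with the least rod RNA, and Pfkp had 24.8, 17.3, 11.4 and 37.4 CPM in retinal microglia, against 0.881, 2.90, 1.59 and 2.31 CPM in brain microglia. Gpi1, an isomerase, averaged 73.6 ± 5.94 CPM in the retina against 47.6 ± 2.62 CPM in the brain (log2 fold change 0.63 ± 0.13 SE, edgeR adjusted p = 0.00961), and Ldha, which turns pyruvate into lactate, 234 ± 23.2 CPM in the retina against 159 ± 19.7 CPM in the brain (log2 fold change 0.55 ± 0.13 SE, edgeR adjusted p = 0.0202). Pkm, pyruvate kinase, was at log2 fold change 0.51. The call of Gpi1 held in all 8 fits with a library left out, that of Ldha in 5 and that of Pkm in 1; with the lane term none of the 3 passed (0.37, 0.43 and 0.35), nor did Eno2 (3.58) or Pfkfb2 (0.92), while Slc2a6, Aldoc and Pfkp did. Lipid handling beyond sterols gave single genes. Plin3, a coat protein of lipid droplets, had 59.7, 59.7, 48.7 and 49.6 CPM in retinal microglia, against 22.0, 20.1, 26.4 and 23.6 CPM in brain microglia (log2 fold change 1.24 ± 0.16 SE, edgeR adjusted p = 0.000529) and stayed higher with the lane term (1.32, edgeR adjusted p = 0.00220). Mgll, which breaks down the endocannabinoid 2-arachidonoylglycerol, averaged 41.9 ± 8.20 CPM in the retina against 94.1 ± 9.55 CPM in the brain (log2 fold change -1.17). The desaturase gene Fads1 averaged 93.8 ± 15.4 CPM in the retina against 177 ± 21.3 CPM in the brain (log2 fold change -0.91). Neither passed with the lane term, at -3.45 and -0.03, and Mgll did not in the fit of all 16 libraries without it (-1.17). Lpin1, a phosphatidate phosphatase, was at -0.87 and passed there too (-1.51, edgeR adjusted p = 0.0114). Mgll, Fads1, Lpin1 and Plin3 kept their calls with any 1 library left out.

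Ribosomal protein genes were higher in retinal microglia in 24 of 77 measured members, with none lower and a median log2 fold change of 0.66. Rpl10a, of the large subunit, had 49.5, 60.7, 50.0 and 62.0 CPM in retinal microglia, against 22.6, 29.5, 15.5 and 18.9 CPM in brain microglia (log2 fold change 1.36 ± 0.20 SE, edgeR adjusted p = 0.00151). Rpl10 averaged 42.3 ± 9.74 CPM in the retina against 17.4 ± 4.73 CPM in the brain (log2 fold change 1.29 ± 0.23 SE, edgeR adjusted p = 0.00463). Both calls held with any 1 library left out. The count of the family depended on the libraries used: 11 to 20 members were higher when 1 library was left out, 12 without retinal libraries 1 and 3 (median 0.39), and 0 with the lane term (median 0.40). These genes have many processed pseudogenes, so reads that fit several copies make their counts uncertain. Gapdh, which has them too, had 7.86, 5.35, 8.77 and 9.03 CPM in retinal microglia, against 4.21, 3.95, 3.52 and 3.30 CPM in brain microglia, a call that held in 1 of the 8 fits with a library left out and not with the lane term (0.32, edgeR adjusted p = 0.818). No nuclear respiratory chain gene was lower and 1 of 81 was higher, Cox7c, whose call ended in each of the 8 fits with a library left out and with the lane term (0.37, edgeR adjusted p = 0.656).

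Among receptors named Gpr or Adgr, 5 of 31 were higher and 9 lower. Gpr65, which senses acid outside the cell, had 48.7, 44.0, 52.1 and 31.2 CPM in retinal microglia, against 7.64, 8.59, 9.77 and 8.67 CPM in brain microglia (log2 fold change 2.34 ± 0.20 SE, edgeR adjusted p = 4.45e-05). Every retinal library was more than 3 times above the highest brain library. Adgre5, the CD97 adhesion receptor, had 6.60, 4.01, 3.98 and 5.33 CPM in retinal microglia, against 0.392, 0.116, 0 and 0 CPM in brain microglia (log2 fold change 5.20 ± 0.75 SE, edgeR adjusted p = 0.00124). Gpr35, a receptor of several small metabolites, averaged 60.0 ± 7.76 CPM in the retina against 27.2 ± 7.87 CPM in the brain (log2 fold change 1.14 ± 0.21 SE, edgeR adjusted p = 0.00475), and Gpr162 5.85 ± 2.81 CPM in the retina against 1.17 ± 0.647 CPM in the brain (log2 fold change 2.34). Lower ones included the orphan receptor gene Gpr165, with 7.41, 13.4, 0.995 and 6.99 CPM in retinal microglia, against 249, 179, 312 and 418 CPM in brain microglia (slope 0.74; log2 fold change -5.32 ± 0.56 SE, edgeR adjusted p = 0.000165). They also included Adgrg1, a receptor of matrix and phosphatidylserine, at 779 ± 56.8 CPM in the retina against 1272 ± 149 CPM in the brain, and the F4/80 gene Adgre1 at 581 ± 96.5 CPM in the retina against 1083 ± 114 CPM in the brain. Adgra3 averaged 15.5 ± 4.46 CPM in the retina against 45.2 ± 5.07 CPM in the brain and Gpr34, a lysophosphatidylserine receptor, 3177 ± 469 CPM in the retina against 4651 ± 286 CPM in the brain. The calls of these 9 genes, 4 higher and 5 lower, held with any 1 library left out. Those of the other 4 lower receptors did not: Adgre4 and Gpr183 held in 2 of the 8 fits and Adgrl2 and Gpr155 in 5. Those of Adgrg1 and Gpr162 ended in the fit of all 16 libraries without lane (-0.71 and 2.32); the call of Gpr84 (log2 fold change 0.60), a receptor of medium-chain fatty acids, held in 1 of 8 fits. Gpr65 (1.98, edgeR adjusted p = 0.000256) and Adgre5 (5.31, edgeR adjusted p = 0.000213) passed with the lane term. Gpr35 (0.70, edgeR adjusted p = 0.267) and Gpr84 (1.12, edgeR adjusted p = 0.167) did not. None of the 9 lower receptors did, Gpr165 at -3.62, Adgrg1 at -0.87, Adgre1 at -0.70, Adgra3 at -1.91 and Gpr34 at -0.11, and Gpr162 turned to -1.45 without passing. None of 6 measured neurotransmitter receptor genes changed.

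Of 36 ion channel genes 4 were higher and 4 lower (11.1% each, against 6.97% and 4.32% of all genes). Trpv4, a cation channel opened by warmth and cell swelling, had 26.7, 34.6, 31.7 and 22.1 CPM in retinal microglia, against 6.27, 9.29, 4.09 and 11.1 CPM in brain microglia (log2 fold change 1.90 ± 0.29 SE, edgeR adjusted p = 0.00173). Lrrc8c, a subunit of the volume-regulated anion channel, had 16.9, 21.5, 12.0 and 14.6 CPM in retinal microglia, against 2.45, 6.97, 2.73 and 4.79 CPM in brain microglia (log2 fold change 1.94 ± 0.35 SE, edgeR adjusted p = 0.00438). In both, all retinal libraries exceeded all brain libraries. Clic4, a chloride channel-like protein, averaged 43.6 ± 10.9 CPM in the retina against 20.6 ± 3.59 CPM in the brain (log2 fold change 1.08 ± 0.22 SE, edgeR adjusted p = 0.00853). All 3 kept their calls with any 1 library left out and with the lane term (2.62, 1.90 and 1.29). The potassium channel gene Kcnd1, with 75.8 ± 11.1 CPM in the retina against 138 ± 10.8 CPM in the brain (log2 fold change -0.86 ± 0.14 SE, edgeR adjusted p = 0.00268), and Trpm4, a sodium-conducting channel opened by calcium, with 15.6 ± 2.81 CPM in the retina against 30.9 ± 5.27 CPM in the brain (log2 fold change -0.99 ± 0.20 SE, edgeR adjusted p = 0.00805), were lower and also kept their calls with any 1 library left out. Neither passed over all 16 libraries, without lane, at nearly the same log2 fold changes, or with it, where Trpm4 was at -0.56 and Kcnd1 at 0.42, of the opposite sign. In cyclic nucleotide signalling 3 of 25 genes were higher and 3 lower. Pde1b, a phosphodiesterase activated by calcium and calmodulin, had 22.1, 20.6, 29.3 and 27.1 CPM in retinal microglia, against 8.12, 6.97, 3.41 and 7.35 CPM in brain microglia (log2 fold change 1.93 ± 0.27 SE, edgeR adjusted p = 0.000957), a call that held with any 1 library left out and not with the lane term (0.95, edgeR adjusted p = 0.566).

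Genes of the cell surface glycan coat changed in both directions. Sdc3, the core of the heparan sulfate proteoglycan syndecan-3, had 279, 274, 179 and 299 CPM in retinal microglia, against 77.9, 98.6, 78.2 and 98.9 CPM in brain microglia (log2 fold change 1.54 ± 0.18 SE, edgeR adjusted p = 0.000250). Xylt1, which adds the sugar that starts such chains, had 10.0, 4.46, 7.28 and 12.6 CPM in retinal microglia, against 0.294, 0.813, 1.36 and 0.330 CPM in brain microglia (log2 fold change 3.64 ± 0.54 SE, edgeR adjusted p = 0.00138). Both were higher in every retinal library than in any brain library. Chst7, a chondroitin sulfotransferase gene, was lower, with 39.9, 37.4, 37.0 and 30.9 CPM in retinal microglia, against 71.1, 73.2, 109 and 105 CPM in brain microglia (log2 fold change -1.31 ± 0.18 SE, edgeR adjusted p = 0.000891). B3gnt8, which extends N-linked chains, had 11.0, 5.96, 9.08 and 9.22 CPM in retinal microglia, against 1.17, 1.28, 2.61 and 1.65 CPM in brain microglia (log2 fold change 2.39 ± 0.36 SE, edgeR adjusted p = 0.00158). All 4 calls held with any 1 library left out and with the lane term (1.92, 3.36, -2.90 and 2.13). Of 31 genes of proteoglycans and their synthesis 3 were higher and 3 lower, and of 35 genes that cap or branch other glycans 6 and 4. B3gnt8 overlaps Bckdha on the other strand, as do Arhgap15 and Adgre5 with Arhgap15os and Ddx39.

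Of 24 axon guidance genes 5 were lower and 2 higher (20.8% and 8.33%, against 4.32% and 6.97% of all genes). The membrane-bound semaphorin gene Sema4b had 6.24, 8.58, 6.47 and 5.88 CPM in retinal microglia, against 35.5, 43.9, 55.2 and 56.3 CPM in brain microglia (log2 fold change -2.81 ± 0.21 SE, edgeR adjusted p = 2.32e-05). Sema6d had 0.181, 0, 1.74 and 1.16 CPM in retinal microglia, against 30.5, 15.0, 29.0 and 34.6 CPM in brain microglia (log2 fold change -5.08 ± 0.69 SE, edgeR adjusted p = 0.000839). Both were far lower in every retinal library, with Sema6d at 0 in library 2. Efnb1, an ephrin, averaged 13.2 ± 0.922 CPM in the retina against 30.3 ± 5.05 CPM in the brain (log2 fold change -1.20 ± 0.18 SE, edgeR adjusted p = 0.00151). The secreted Sema3f was higher, with 6.24, 3.23, 3.98 and 8.80 CPM in retinal microglia, against 0.196, 0.232, 0 and 0.0825 CPM in brain microglia (log2 fold change 5.36 ± 0.66 SE, edgeR adjusted p = 0.000439). The calls of these 4 held with any 1 library left out, and all but Efnb1 (-0.99, edgeR adjusted p = 0.265) passed with the lane term (-2.74, -5.73 and 7.07). Among adhesion genes Jam3 averaged 3.79 ± 3.13 CPM in the retina against 35.0 ± 5.36 CPM in the brain (log2 fold change -3.24 ± 0.46 SE, edgeR adjusted p = 0.00108) and Pecam1, shared with vessel cells, 8.79 ± 2.98 CPM in the retina against 47.2 ± 6.14 CPM in the brain (log2 fold change -2.42 ± 0.24 SE, edgeR adjusted p = 0.000118); with the lane term neither passed (-3.64, edgeR adjusted p = 0.348 and -3.52, edgeR adjusted p = 0.0586). Ncam1, higher in the retinal libraries, followed the rod sum (slope 1.24). Of 62 regulators of small GTPases 7 were higher and 5 lower. Arhgap15, which switches off RAC1, had 64.4, 36.6, 45.9 and 50.4 CPM in retinal microglia, against 5.48, 3.72, 0.682 and 6.69 CPM in brain microglia (log2 fold change 3.54 ± 0.45 SE, edgeR adjusted p = 0.000521), a gap without overlap. Arhgap29, another GTPase-activating protein gene, had 2.80, 2.17, 4.17 and 3.71 CPM in retinal microglia, against 34.9, 30.0, 23.1 and 25.7 CPM in brain microglia (log2 fold change -3.14 ± 0.26 SE, edgeR adjusted p = 3.53e-05). Both passed with the lane term (3.51 and -3.09) and with any 1 library left out.

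Of 33 sensors of foreign nucleic acid and their response genes 4 were higher and 3 lower (12.1% and 9.09%, against 6.97% and 4.32% of all genes). Irf7, the factor that amplifies type I interferon, had 48.2, 36.3, 50.5 and 42.4 CPM in retinal microglia, against 8.91, 12.5, 6.48 and 7.59 CPM in brain microglia (log2 fold change 2.32 ± 0.23 SE, edgeR adjusted p = 9.31e-05). Oas2, an interferon-induced sensor of double-stranded RNA, had 16.5, 6.35, 7.71 and 6.72 CPM in retinal microglia, against 0.0979, 0.697, 0.114 and 0.165 CPM in brain microglia (log2 fold change 5.12 ± 0.61 SE, edgeR adjusted p = 0.000374). Oas2 was near 0 in all brain libraries and highest in retinal library 1. Both passed with the lane term (2.64 and 5.29) and with any 1 library left out. Oas1a, a relative of Oas2, averaged 26.9 ± 11.0 CPM in the retina against 9.29 ± 2.78 CPM in the brain (log2 fold change 1.54 ± 0.33 SE, edgeR adjusted p = 0.0116); it passed with the lane term (1.62) and not without retinal libraries 1 and 3 (log2 fold change 0.96), and its paralogs may share reads. Tlr7, the endosomal RNA receptor, and Slc29a3, a lysosomal nucleoside exporter, were lower at -0.47 and -0.73, and neither passed with the lane term or without brain library 4. Irf7 overlaps Phrf1 on the other strand.

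Secreted and protective factors gave few calls. Igf1, a growth factor for neurons and myelin-forming cells, had 16.4, 9.53, 15.6 and 8.62 CPM in retinal microglia, against 0.881, 1.51, 3.86 and 1.40 CPM in brain microglia (log2 fold change 2.72 ± 0.45 SE, edgeR adjusted p = 0.00268). Gpx3, a secreted peroxidase, had 19.5, 20.7, 17.5 and 14.0 CPM in retinal microglia, against 0.294, 1.63, 0.682 and 0 CPM in brain microglia (log2 fold change 4.86 ± 0.63 SE, edgeR adjusted p = 0.000610). Both lay higher in every retinal library than in any brain library. Angptl7, a secreted angiopoietin-like protein, was lower, with 2.98, 5.18, 3.42 and 4.49 CPM in retinal microglia, against 32.7, 27.2, 28.5 and 23.5 CPM in brain microglia (log2 fold change -2.79 ± 0.23 SE, edgeR adjusted p = 3.93e-05). Tgfa, an EGF receptor ligand, averaged 136 ± 28.5 CPM in the retina against 250.1 ± 18.4 CPM in the brain (log2 fold change -0.88 ± 0.16 SE, edgeR adjusted p = 0.00396). These 4 passed with the lane term (2.34, 4.59, -2.62 and -6.80), where the value of Tgfa was far from its other one. Gclc, which limits glutathione synthesis, averaged 81.9 ± 5.29 CPM in the retina against 134 ± 29.0 CPM in the brain (log2 fold change -0.71 ± 0.16 SE, edgeR adjusted p = 0.0137), and its lane value was -1.58, edgeR adjusted p = 0.00506. All 5 calls held with any 1 library left out. Those of Gclc and Tgfa ended in the fit of all 16 libraries without a lane term (log2 fold changes -0.72 and -0.89), and that of Gclc without retinal libraries 1 and 3 (-0.70). Of 25 trophic factor genes 1 was higher and 2 lower, and of 37 antioxidant genes 2 and 3. Developmental pathways had 3 higher and 3 lower of 24 Notch genes (12.5% each) and 2 and 4 of 16 BMP genes (12.5% and 25%). Of 21 Wnt genes 1 was higher and 2 were lower. All genes had 6.97% higher and 4.32% lower. With the lane term 0 genes of these lists passed. Bmp1, a procollagen protease, averaged 2.42 ± 0.929 CPM in the retina against 12.6 ± 1.94 CPM in the brain (log2 fold change -2.38 ± 0.32 SE, edgeR adjusted p = 0.000853) and the Notch effector Hes1 7.94 ± 1.10 CPM in the retina against 18.3 ± 4.53 CPM in the brain (log2 fold change -1.20 ± 0.23 SE, edgeR adjusted p = 0.00703); with the lane term neither passed (-1.68 and -1.16).

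The remaining lists held few calls. Their shares were near those of all genes in some. In others, such as glucocorticoid targets (25% lower) and adhesion genes (20% lower), they were above them. Of 20 glucocorticoid targets 5 were lower and 1 higher, and 2 were lower with the lane term. Tgm2, a transglutaminase, averaged 48.2 ± 15.6 CPM in the retina against 98.3 ± 9.31 CPM in the brain (log2 fold change -1.03 ± 0.22 SE, edgeR adjusted p = 0.00990) and stayed lower with the lane term (-1.55), while Tle3 and Errfi1 had log2 fold changes of -0.81 and -0.71 that did not (-0.79 and -0.42). Of 21 clock genes 2 were higher and 1 lower, and Bhlhe41, a clock and microglia repressor gene, had 429, 434, 396 and 506 CPM in retinal microglia, against 256, 228, 252 and 238 CPM in brain microglia (log2 fold change 0.86 ± 0.12 SE, edgeR adjusted p = 0.000842), a call that held with any 1 library left out and not with the lane term (0.68, edgeR adjusted p = 0.351). Of 55 chromatin genes 4 were higher and 1 lower. Uhrf1, which helps copy DNA methylation, averaged 5.12 ± 1.01 CPM in the retina against 0.861 ± 0.591 CPM in the brain (log2 fold change 2.56 ± 0.52 SE, edgeR adjusted p = 0.00832; 2.36 with the lane term, which it passed), and Hdac9, a deacetylase, 46.9 ± 15.0 CPM in the retina against 18.0 ± 6.62 CPM in the brain (log2 fold change 1.38 ± 0.30 SE, edgeR adjusted p = 0.0115; 1.00 with the lane term, which it did not). Of 38 nucleotide synthesis genes 3 were higher and 1 lower. Impdh1, which the retina uses for guanine nucleotides, followed the rod sum (slope 0.85), and the thymidine kinase gene Tk1 was higher by 1.51 ± 0.34 (SE; edgeR adjusted p = 0.0144), with 0.69 in the fit with lane, which it did not pass.

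Of 36 autophagy genes 2 were higher and 1 lower. Ulk2, a kinase that starts autophagy, averaged 124 ± 30.9 CPM in the retina against 219 ± 7.48 CPM in the brain (log2 fold change -0.82 ± 0.17 SE, edgeR adjusted p = 0.00988), and its lane value of -0.77 did not pass. Optn, an autophagy receptor, followed the rod sum (slope 0.77) and did not pass with the lane term (1.83). There were 1 higher and 2 lower of 31 apoptosis genes, 3 and 3 of 28 p53 targets, 2 and 1 of 11 retinoid genes, 2 and 1 of 30 histone genes and 2 and 3 of 29 genes of fatty acid and glycerolipid synthesis. Of 25 genes of beta-oxidation 0 were higher and 2 lower, Etfb and Hsd17b4 (-0.68 and -0.56), and neither passed without brain library 4 or with the lane term (-0.89 and -0.27). Of 20 adhesion genes 1 was higher and 4 were lower. Among zinc finger genes Zfp691 averaged 14.6 ± 3.57 CPM in the retina against 35.7 ± 9.45 CPM in the brain (log2 fold change -1.29 ± 0.24 SE, edgeR adjusted p = 0.00494; -0.74 with the lane term, not passed). Zfp536, known from neurons, had 0 counts in the 4 brain libraries and 2.44, 2.34, 3.98 and 17.9 CPM in retinal libraries (slope 0.61), which is at least 103-fold higher against a floor of 3 counts over the brain libraries. Most of these counts came from retinal library 4, without which the bound is at least 39.1-fold. Zfp536 passed with the lane term too.

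Outside all lists, including the usual microglia markers, 254 called genes reached 20 CPM in retinal microglia without overlap and with a slope under 0.5, and 366 reached 20 CPM in brain microglia. The 15 with the largest change in each direction were taken. Cyp4f18, a P450 enzyme that inactivates leukotriene B4 (chromosome 8, 71988482 to 72009626), led the higher genes, with 41.6, 40.2, 37.1 and 37.5 CPM in retinal libraries 1 to 4, against 1.47, 1.97, 0.455 and 0 CPM in brain libraries 1 to 4 (log2 fold change 5.37 ± 0.55 SE, edgeR adjusted p = 0.000139). Hcar2, the receptor of niacin and the ketone body beta-hydroxybutyrate (chromosome 5, 123863570 to 123865499), had 124, 114, 174 and 142 CPM in retinal microglia, against 11.6, 11.0, 7.16 and 15.9 CPM in brain microglia (log2 fold change 3.59 ± 0.24 SE, edgeR adjusted p = 1.70e-05). Pdcd1, the PD-1 receptor gene (chromosome 1, 94038305 to 94052553), had 83.8, 65.8, 98.2 and 56.2 CPM in retinal microglia, against 8.22, 3.83, 3.64 and 6.03 CPM in brain microglia (log2 fold change 3.79 ± 0.29 SE, edgeR adjusted p = 2.32e-05). These genes were high in every retinal library, also in library 3 with the least rod RNA. The choice by no overlap and a low slope largely fixed this beforehand. Fxyd5, a regulator of the sodium pump, had 66.3, 68.7, 116 and 60.7 CPM in retinal microglia, against 4.89, 7.43, 6.70 and 8.25 CPM in brain microglia (log2 fold change 3.51 ± 0.26 SE, edgeR adjusted p = 2.30e-05). Retinal library 3 was the highest and no brain library came near. Cd72, an inhibitory receptor known from B cells, had 73.2, 77.8, 123 and 79.2 CPM in retinal microglia, against 7.64, 8.36, 9.09 and 6.52 CPM in brain microglia (log2 fold change 3.49 ± 0.22 SE, edgeR adjusted p = 1.12e-05). Cybb, the catalytic subunit of the phagocyte NADPH oxidase, had 63.5, 37.6, 48.3 and 47.1 CPM in retinal microglia, against 4.50, 6.04, 6.48 and 2.64 CPM in brain microglia (log2 fold change 3.33 ± 0.28 SE, edgeR adjusted p = 4.18e-05).

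The list went on with Pla2g7, which breaks down platelet-activating factor (25.2 ± 5.62 CPM in the retina against 2.41 ± 1.92 CPM in the brain), and the adenosine receptor gene Adora1 (24.9 ± 5.21 CPM in the retina against 1.45 ± 1.57 CPM in the brain). Tnfsf8, the CD30 ligand, had 35.4, 21.4, 23.2 and 20.4 CPM in retinal microglia, against 4.11, 0.116, 1.14 and 2.97 CPM in brain microglia. Further ones were the helicase-nuclease Dna2 (25.3 ± 8.46 CPM in the retina against 2.55 ± 1.12 CPM in the brain) and the hyaluronan receptor Cd44 (25.7 ± 2.89 CPM in the retina against 3.45 ± 1.47 CPM in the brain). Klf2, a factor of quiescence, averaged 64.5 ± 16.4 CPM in the retina against 9.69 ± 3.29 CPM in the brain and Haao, an enzyme of the kynurenine pathway, 37.7 ± 3.72 CPM in the retina against 6.24 ± 2.32 CPM in the brain. Lilrb4, an inhibitory receptor (61.4 ± 12.4 CPM in the retina against 7.08 ± 3.71 CPM in the brain), and the class I gene H2-Q6 (50.4 ± 25.6 CPM in the retina against 6.82 ± 1.33 CPM in the brain) have near-identical relatives, so their counts are uncertain. In the fit with lane 12 of the 15 stayed higher; Adora1 (4.06, edgeR adjusted p = 1.00), Tnfsf8 (3.12, edgeR adjusted p = 0.125) and Haao (1.70, edgeR adjusted p = 0.256) did not, and Pdcd1 moved to 8.42. Exons of Cyp4f18, Cd72 and Adora1 overlap Zfp961, Tesk1 and Mybph on the other strand. Further genes in the text have such overlaps, among them P2ry12 (Med12l), Csf1r (Hmgxb3), Pfkp (Pitrm1), Tgm2 (Rprd1b) and Tk1 (Afmid). The pairs named are examples and not a full list.

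Of the 15 lower genes, Bank1, a B cell scaffold protein (chromosome 3, 136053363 to 136326066), had 32.6, 17.0, 18.5 and 24.6 CPM in retinal microglia, against 131, 104, 142 and 128 CPM in brain microglia (log2 fold change -2.45 ± 0.21 SE, edgeR adjusted p = 4.85e-05). Tmem204, a membrane protein of cell contacts, had 15.7, 20.9, 25.6 and 19.0 CPM in retinal microglia, against 86.7, 110.3, 91.2 and 86.8 CPM in brain microglia (log2 fold change -2.20 ± 0.18 SE, edgeR adjusted p = 3.27e-05). Khdrbs3, an RNA-binding splicing factor, had 14.6, 17.7, 12.5 and 23.3 CPM in retinal microglia, against 93.3, 84.2, 83.4 and 69.0 CPM in brain microglia (log2 fold change -2.27 ± 0.21 SE, edgeR adjusted p = 5.78e-05). None of these 3 overlapped between tissues, which the choice required. Rgs7bp, which anchors RGS proteins at the membrane, had 0.814, 1.84, 1.24 and 1.07 CPM in retinal microglia, against 22.6, 15.2, 29.4 and 20.2 CPM in brain microglia, the largest decrease of the 15 at -4.11 ± 0.32 (SE; edgeR adjusted p = 2.78e-05). The others were the phosphatase Ppm1l (20.2 ± 2.41 CPM in the retina against 92.2 ± 21.2 CPM in the brain), the flagellin receptor Tlr5 (8.85 ± 5.54 CPM in the retina against 36.7 ± 5.60 CPM in the brain), the GTPase Mras (11.1 ± 3.82 CPM in the retina against 38.9 ± 4.26 CPM in the brain) and the actin crosslinker Actn1 (5.66 ± 2.02 CPM in the retina against 23.3 ± 3.95 CPM in the brain). They also included Ccdc162, Gprasp2, Glis3, Nhsl2, Trp53i11, Casc4 and Dusp27, with log2 fold changes between -3.70 and -1.79. With the lane term 2 of the 15, Bank1 (-3.07, edgeR adjusted p = 0.00159) and Tmem204 (-2.03, edgeR adjusted p = 0.0217), passed. The other 13 kept their sign and lay between -4.90 and -1.20, with edgeR adjusted p from 0.0559 (Rgs7bp) to 0.428 (Khdrbs3). All 30 genes kept their calls with any 1 library left out.

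**Figure D5:**
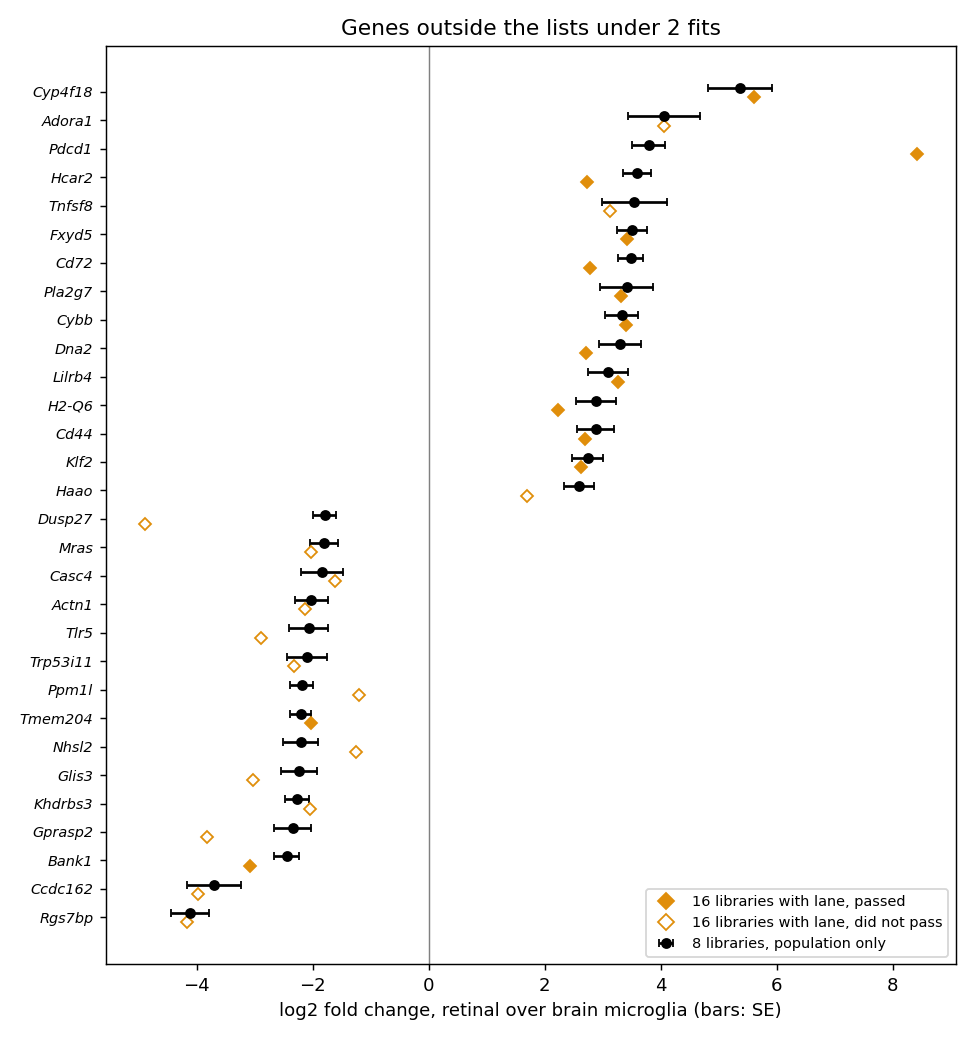
Log2 fold changes of retinal over brain microglia (x axis) for the 15 highest and 15 lowest genes outside the lists, with SE bars for the fit of 8 libraries (black circles) and orange diamonds for the fit of 16 libraries with lane, filled where the gene passed. Of the higher genes 12 have filled diamonds, and of the lower genes Bank1 and Tmem204.

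Other myeloid cells share the sort gate, and their markers were set beside these genes. Of 12 measured markers of macrophages at the borders of the nervous system 6 were higher, namely 4 genes of class II presentation, Pf4 and Ms4a7, and 2 were lower, Mrc1 and Stab1. All 6 higher ones and neither lower one passed with the lane term. Their summed level ranged from 499.8 to 624.5 CPM in retinal and from 391.9 to 564.8 CPM in brain libraries, which overlap. Ms4a7 averaged 19.5 ± 3.65 CPM in the retina against 0.500 ± 0.553 CPM in the brain. Mrc1, the mannose receptor gene of these cells, went the other way and overlapped, at 10.7 ± 3.51 CPM in the retina against 21.7 ± 7.61 CPM in the brain. Cd163 had 66 counts over the 4 retinal and 0 over the 4 brain libraries, and Lyve1 28 and 1. Of 7 measured monocyte markers Lyz2 was higher (log2 fold change 1.16; 0.82, edgeR adjusted p = 0.190 with the lane term, not passed) and Ccr2, which defines classical monocytes, lower (0.824 ± 0.291 CPM in the retina against 5.93 ± 1.56 CPM in the brain); Ly6c2 had 19 counts in retinal and 13 in brain libraries. The part of border macrophages in the higher genes was not tested.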

How the data were processed

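Bulk RNA libraries of sorted cells were compared at the level of genes. The authors deposited 1 table of raw read counts per gene for all 16 libraries, with a column of gene length in bases that was not used, per the file headers; CASAVA 1.8.2, Subread, featureCounts, limma and build GRCm38.p4 are named in the submitters' processing notes. The labels' extraction text describes another tissue and mouse line, so the kit and the use of strand are uncertain. The deposited table held 45664 entries. Without those that had turned into dates, described below, 13735 passed edgeR's filter (filterByExpr, minimum count 10). Libraries were scaled by TMM and compared with edgeR 4.0.16 (R 4.3.3), quasi-likelihood F-test, population as the term, with p-values adjusted by Benjamini-Hochberg over all tested genes and a threshold of 0.05. Every p-value printed is an adjusted p of such an edgeR fit. CPM are the counts of a library scaled to a common library size after TMM, and SEs were taken from the log2 fold change and its F value. Total counts per library, 8677418 to 19943048, limit the precision of low genes. Entries whose symbols had turned into dates (27) held at most 0.160% of a library's counts and stayed in.

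Rod slopes used log2(CPM + 0.5). Fits with lane took the lane from the column headers. Alternatives were RLE scaling, total counts only, DESeq2 1.42.0, no filter, a mean of at least 5 CPM, all 16 libraries without and with lane, retinal libraries 1 and 3 left out, genes that track rod RNA left out, and each library left out. On simulated counts of 13455 genes for this comparison, 53 of 100 genes changed by 1 on the log2 scale and 99 of 100 changed by 2 were called, with 11 false calls. Members and lists were chosen with earlier results of these data known. In each list up to 3 called genes with the largest change, at least 5 CPM and no overlap were named. Outside the lists 15 in each direction with at least 20 CPM and no overlap were named. For genes named in this way, a lack of overlap between tissues was part of the choice and is no separate result. A few genes are not reported here. Other genes in the text were chosen after their values were seen. The ER stress element and a sterol element were added to the promoter search after seeing the data. Gene coordinates are from GENCODE vM21 and promoter windows from RefSeq GRCm38.p6.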

Additional observations from a re-analysis of the deposited data

Results flagged for a closer look

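Among 142 groups of 4 libraries examined for the genes given per library and the marker sums, 7 held 1 library whose gap to its nearest neighbour took up more of the group's range than Dixon's 95% critical value for 4 samples. Chance gives about 1 in 20 such groups, close to the number found. Brain library 2 stood apart 3 times. Its Dnajc3 level was 229.5 CPM, against 292.3 to 301.0 CPM in the other brain libraries (gap 0.877 of the range). Oas2 was at 0.697 CPM there and at 0.0979 to 0.165 CPM in the others (0.888), and the rod list sum was 319.9 CPM against 265.7 to 273.1 CPM (0.862).

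In the retinal libraries, Sesn1 was at 224.6 CPM in library 4, against 198.1 to 202.3 CPM in the others (0.84). Oas2 was at 16.5 CPM in library 1, against 6.35 to 7.72 CPM in the others (0.865). Library 3, with the least rod RNA, stood above the others for Fxyd5, at 116.2 against 60.7 to 68.7 CPM (0.856), and for Cd72, at 123.1 against 73.2 to 79.2 CPM (0.881). Each of these genes kept its call between the tissues when any 1 library was left out.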

How the results depend on the processing

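Counts of calls kept within 1.5 times of 1550 changed, 957 higher and 593 lower genes in all settings but the following. Genes lower came to 344 with total counts only and to 963 with DESeq2. With lane as a term over 16 libraries, 462 genes changed, 316 higher and 146 lower. With 1 library left out, genes lower ranged from 315 to 828, with 374, 341 and 315 without brain libraries 1, 3 and 4. Of 126 named genes, 126 kept direction and side of the threshold with RLE scaling, with DESeq2 and with a mean of at least 5 CPM, 119 without a filter, 117 with total counts only, 112 over all 16 libraries, 101 without retinal libraries 1 and 3, 97 to 120 with 1 library left out and 52 with the lane term; the 113 that do not track rod RNA did so when genes that track it were removed. Signs reversed in 3 of these 126. With the lane term Adcy8 was at 0.88 and Hist2h4 at -0.60 (log2 fold change). With 1 library left out mt-Co1 ranged from -0.0904 to 0.538, below 0 without retinal library 3. Called list members beyond the 126 also turned sign with the lane term, without passing. These were Kcnd1 (0.42), Gpr162 (-1.45), Per2 (-1.10), Tpcn1 (-0.48), Eng (0.15) and Cdh23 (0.25). The cause was not tested. Removing 1 library leaves fewer samples for the same test. No paired analysis was possible because the replicate numbers were given in accession order and pair nothing. At these depths, genes of a few CPM have wide errors, and an uncalled gene may still differ.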

Other observations

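Defining genes of neutrophils, which the sort gate does not remove, and of T cells had few counts. The neutrophil genes S100a8 and Ltf had 1 and 0 counts over the 4 retinal libraries, against 14 and 79 counts over the 4 brain libraries, and the T cell gene Cd3e had 1 count in the retinal and 0 in the brain libraries. None of the 5 measured genes of oligodendrocytes, the myelin-forming cells, changed. Their summed level ranged from 470.9 to 619.4 CPM in retinal libraries and from 529.1 to 638.2 CPM in brain libraries. Pairs of libraries from the same tissue were compared by the chi-square of their counts per degree of freedom. It ran from 29.4 to 104.8 over pairs of retinal libraries and from 14.7 to 22.7 over pairs of brain libraries. No pair agreed within sampling noise. The measure also grows with total counts, which were 10714335 to 19943048 in retinal and 8677418 to 12848012 in brain libraries. Its values in the 2 tissues are therefore not directly comparable. Whether retinal libraries differed more among themselves than brain libraries was not tested. The pair of retinal libraries farthest apart by this measure was the one with the lowest and the highest rod sum, libraries 3 and 4, which share a title number.

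Beside the 5 lower genes with the ER stress element, 9 further genes that hold it were measured, among them Hsp90b1, Creld2 and Syvn1 of the same response, and none passed the test. The median log2 fold change of all 14 was -0.40, against 0.03 for all tested genes. It includes the 5 lower genes, and the element was chosen after their calls were known, so it is no separate support. Hsp90b1, an abundant chaperone of the compartment, averaged 921.7 ± 113 CPM over the retinal libraries, all of which lay below the brain mean of 1186 ± 79.9 CPM and its libraries (SD, n = 4 each; log2 fold change -0.36, edgeR adjusted p = 0.0700).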
